A study of Mus musculus with 9 samples.

Results

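The genes described here are 10 members of the Notch pathway: the receptors Notch1, Notch2, Notch3 and Notch4, the ligands Jag1, Jag2 and Dll1, and the target genes Hes1, Hey1 and Nrarp. They were chosen by name, as the rows of the deposited expression table that carry these symbols, and make up 10 of its 23951 gene rows. RNA was measured in 9 libraries of mammary cells from female mice of mixed genetic background. The cells were sorted for a yellow fluorescent protein (YFP) reporter 1 month after an adenovirus that expresses Cre recombinase, Ad-K8-Cre, was delivered into the mammary ducts. There were 3 genotypes with 3 libraries each, and all of them carried the Rosa26-Stop-YFP reporter (R26Y) and received the virus. The WT group had the reporter alone, the p53-null group was Trp53L/L;R26Y, and the p53/Brca1-null group was Trp53L/L;Brca1L/L;R26Y. Cre in this virus is driven by a promoter of keratin 8, a luminal keratin, so recombination was aimed at luminal cells and the reporter marks cells that had Cre, not cells that lost Trp53 or Brca1. The labels give neither the ages of the mice nor whether libraries of a group came from separate animals, and p-values therefore reflect only how these libraries vary, which may be technical.

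Notch receptors sit in the cell membrane and are activated by ligands of the Jagged and Delta-like families on a neighbouring cell. Ligand binding exposes the receptor to the protease Adam10 and then to the gamma-secretase complex, which frees the intracellular domain. That domain enters the nucleus, joins the DNA-binding protein Rbpj and a Mastermind coactivator, and switches on genes of the Hes and Hey families and the feedback inhibitor Nrarp. In the mammary gland the pathway is known for its part in the choice between luminal and basal cell fate, and Notch4 was first known as an insertion site of the mouse mammary tumour virus.

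Values were taken as FPKM, fragments per kilobase of transcript scaled to the number of fragments in a library, although the table header names no unit. Levels are compared between genes on that basis. Their sums lay between 359976 and 433880 per library, and 4839 to 9767 genes stood at 1 FPKM or more. The read depth is unknown. Relative depth, read from the spacing of low values, ran from 0.788 to 1.12. Of 158 genes for ribosomal proteins, proteasome subunits and RNA polymerase II, which all cells use, 11 were listed at exactly 0 in at least 1 library, so a member at 0 is given as listed at 0. Trp53 ranged from 1.35 to 25.5 FPKM across WT libraries, from 0.858 to 55.7 across p53-null and from 1.88 to 26.5 across p53/Brca1-null libraries, and Brca1 was listed at 0 in 8 of 9 libraries. Values per gene include exons outside a deletion and so do not check the genotypes, which are named as labelled throughout. The 12 luminal epithelial markers summed to between 3851 and 16395 FPKM, while 11 immune markers summed to between 2312 and 12677 and 12 endothelial markers to between 0.782 and 632.5. The sorted fractions thus held transcripts of other cell types beside those of epithelium. One library stood apart. Of 4861 genes at 5 FPKM or more in WT replicate 2 and above 0 in WT replicate 1, 1167 (24.0%) had in replicate 1 between 7.43% and 9.15% of their level in replicate 2. In the other 71 ordered pairs of libraries the commonest such ratio, in a window of the same relative width, held 1.55% to 5.35% of genes. What gave WT replicate 1 this share was not tested. Differences of Hes1, Notch1, Hdac1 and Numb from WT are also given without that library. Likeness of patterns between genes was measured with all 9 libraries only.

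Hes1 was the most abundant member and the only one at 1 FPKM or more in all 9 libraries. The mean over the libraries was 37.9 FPKM for Hes1, against 4.87 for Dll1, 2.92 for Notch1, 2.77 for Hey1, 2.53 for Jag1, 2.40 for Nrarp, 1.02 for Notch2, 0.627 for Notch3, 0.241 for Jag2 and 0.0134 for Notch4. Hes1 stood above Dll1 in 9 of 9 libraries, and WT replicate 1 was the 1 library where another member, Notch1, was higher. Below Hes1 the order was not firm. Dll1 exceeded Notch1 in 6 of 9 libraries, Notch1 exceeded Hey1 in 6, Hey1 exceeded Jag1 in 4, Jag1 exceeded Nrarp in 6 and Nrarp exceeded Notch2 in 5. The plot of members by library shows this scatter.

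**Figure D1:**
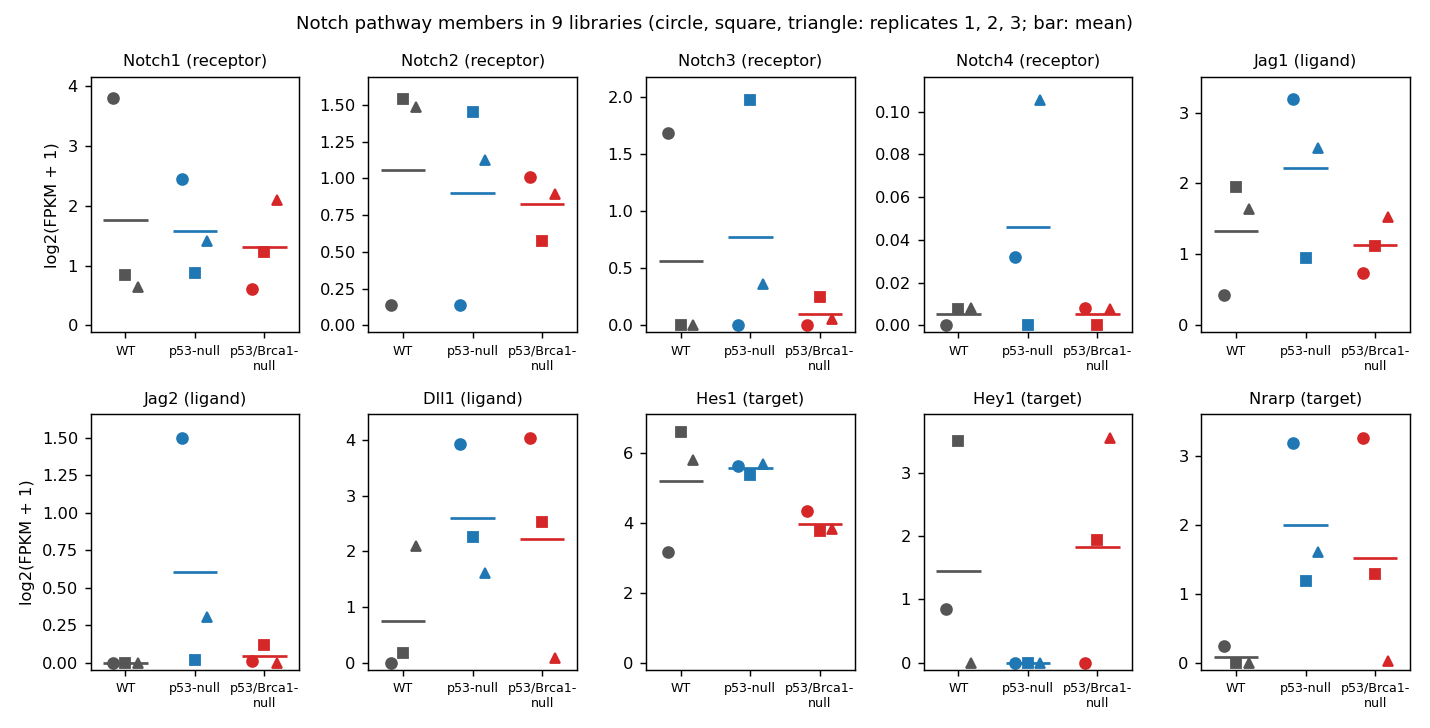
Level of each of the 10 members, as log2(FPKM + 1) on the vertical axis with its own scale per gene, in the 3 WT, 3 p53-null and 3 p53/Brca1-null libraries (circle, square and triangle for replicates 1, 2 and 3, bar for the mean). Hes1 separates p53-null from p53/Brca1-null, and most other members differ as much within a genotype as between genotypes.

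Differences between genotypes were tested with limma on log2(FPKM + 1) over the 9503 genes that reached 1 FPKM in at least 3 libraries. Of the 10 members, 7 passed this filter; Notch3, Notch4 and Jag2 did not and are described by their values only. In p53-null against WT no tested member passed (limma adjusted p from 0.430 to 0.962), where 0.0105% of all tested genes passed, which is 1 gene. For p53/Brca1-null against WT none passed either (limma adjusted p from 0.537 to 0.950), with 0.253% of all genes passing. Between the null genotypes none passed (limma adjusted p = 0.999 for each), with 0.0% of all genes passing. At an unadjusted p under 0.05 the count of members was also 0 of 7 in each comparison, while 11.7%, 12.2% and 4.74% of all genes lay under it. Counting groups that did not overlap, in p53-null against WT 1 member was higher (background 14.1%) and 0 were lower (2.16%). In p53/Brca1-null against WT 0 were higher (12.7%) and 0 lower (3.83%), and between the null genotypes 0 were higher (4.87%) and 1 was lower (8.02%). A p above the threshold does not show that a member was equal between genotypes. The plot of member differences gives the intervals. The first 2 comparisons share the WT libraries, and each pair of comparisons shares one genotype.

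**Figure D2:**
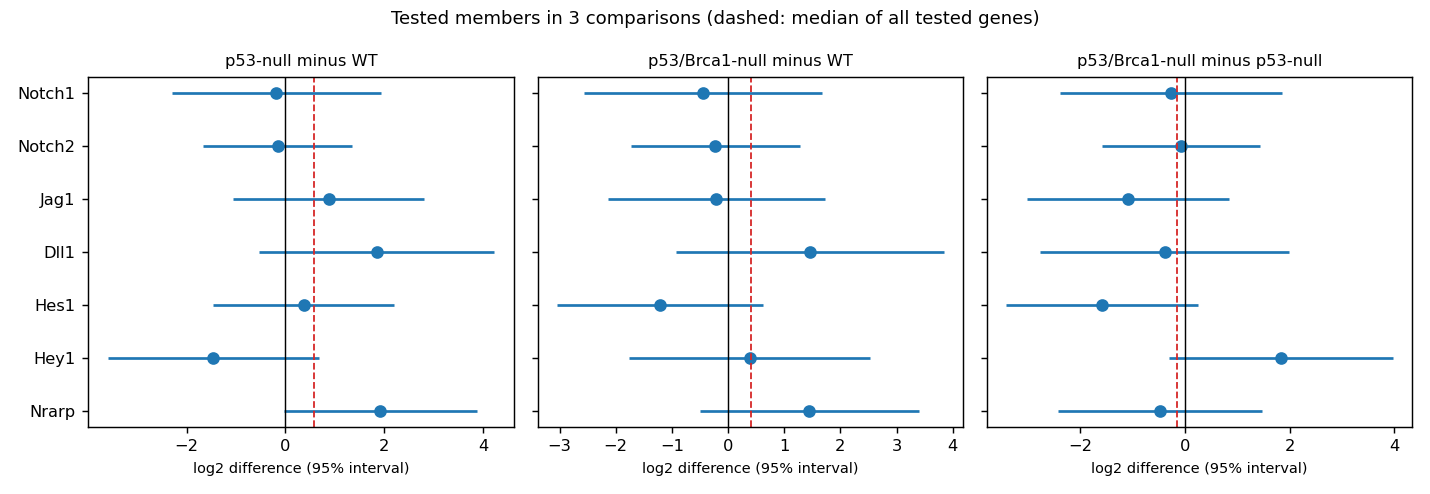
Log2 difference between genotypes with its 95% interval (horizontal axis) for the 7 tested members in the 3 comparisons; the solid line marks 0 and the dashed line the median of all 9503 tested genes. The intervals of all 7 members include 0 in each comparison, with Nrarp in p53-null against WT nearest to leaving it out, at -0.04 to 3.86.

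By their median, the tested genes leaned towards higher values in the null genotypes than in WT. Their median log2 difference was 0.58 when p53-null was set against WT, 0.41 when p53/Brca1-null was, and -0.16 between the null genotypes, and quantile normalization moved these medians to -0.04, -0.04 and 0.000905. Without WT replicate 1 the 2 medians against WT were 0.34 and 0.20, and with detected gene number as a covariate they were 0.014 and 0.052. The medians of the 7 tested members, with all libraries and no such change, were 0.37, -0.21 and -0.39. Relative to the median of all genes, 3, 2 and 2 of the 7 members lay above it. These 7 were the members with values high enough to test, and their medians are a description.

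Of the targets, only Hes1 did not overlap between the null genotypes, and only Nrarp did not overlap between p53-null and WT. Hes1 encodes a basic helix-loop-helix repressor that keeps progenitors from differentiating in many tissues. It stood at 7.99, 94.9 and 54.9 FPKM in WT, at 48.3, 40.1 and 50.1 among p53-null libraries, and at 19.2, 12.5 and 13.2 in p53/Brca1-null. The 3 p53-null libraries lay close together and all above the 3 p53/Brca1-null libraries, which also lay close together, while WT spanned both. Means were 46.2 ± 5.30 FPKM (SD, n = 3) among p53-null libraries and 14.95 ± 3.67 in p53/Brca1-null. The log2 difference was -1.58 ± 0.87 (SE), with a 95% interval from -3.41 to 0.25. This did not pass (limma adjusted p = 0.999, unadjusted p = 0.0857), although the groups did not overlap. In that comparison 8.02% of all tested genes were lower without overlap, and Hes1 was the 1 tested member among them. Over the 19 other settings tried, the difference stayed between -1.76 and -1.31, with adjusted p from 0.199 to 1.0. The limma p rests on a spread shared by all 9 libraries, WT included, and was 0.536 (limma adjusted) without WT replicate 1.

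Marker sums of other lists differed beside Hes1 between these genotypes. The 7 hormone-sensing luminal markers summed to 319.6, 583 and 435 FPKM in p53-null and to 151, 171 and 193 in p53/Brca1-null. Prlr, Areg and Ly6a made up most of each sum. Prlr and Areg were lower without overlap in p53/Brca1-null. Ly6a overlapped, and its highest value was in p53/Brca1-null replicate 2, at 110.9 FPKM. The estrogen receptor gene Esr1 and the progesterone receptor gene Pgr, 2 low markers of that list, were both listed at 0 in p53/Brca1-null replicates 1 and 2. No marker of the list was at 0 in p53-null. Esr1 overlapped, with 1.66 FPKM in p53/Brca1-null replicate 3, and stood at 0.0230, 0.158 and 0 FPKM in WT. The sum of the 11 immune markers went the other way, at 2520, 4005 and 5517 FPKM against 7751, 12677 and 12390. Most of it came from Cd74, H2-Aa, H2-Ab1 and Lyz2, of antigen presentation and myeloid cells. Cd74, H2-Aa, H2-Ab1, C1qa, C1qb and Csf1r were higher without overlap in p53/Brca1-null. Lyz2 overlapped, at 1583 FPKM in p53-null replicate 2 and 1445 in p53/Brca1-null replicate 1, with a higher mean in p53/Brca1-null. The pan-leukocyte marker Ptprc had a lower mean there (6.58 against 2.80 FPKM), as did the T cell marker Cd3e (4.33 against 1.995). Both overlapped and were highest in p53-null replicate 2, at 13.5 and 8.87 FPKM. Adgre1 and Cd79a overlapped too, with higher means in p53/Brca1-null. Luminal epithelial markers summed to 3851, 16395 and 10007.5 FPKM against 6774, 4947 and 7457, so these overlapped. In bulk libraries fewer cells that express a gene and less RNA per cell cannot be told apart. The part of these marker lists in the Hes1 values was not tested.

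Against WT, Hes1 depended on WT replicate 1. The log2 difference of p53/Brca1-null from WT was -1.21 ± 0.87 (SE, limma adjusted p = 0.587) with all libraries and -2.22 without WT replicate 1 (limma adjusted p = 0.173). For p53-null against WT it was 0.37 ± 0.87 (limma adjusted p = 0.899) and turned to -0.64 without that library (limma adjusted p = 0.768). Hes1 in WT replicate 1 was 8.42% of its level in WT replicate 2, which is inside the range of the shared ratio given above. Subtracting that share left 0.162 FPKM of Hes1 in WT replicate 1, and the differences then became -0.23 and 1.35 (limma adjusted p of 0.962 and 0.708). By rank, Hes1 lay above 75.4%, 93.8% and 89.6% of tested genes in WT, 87.6%, 85.5% and 88.0% among p53-null libraries, and 75.8%, 67.4% and 66.8% in p53/Brca1-null. A rank within a library does not move when the whole library is rescaled, and by rank the null genotypes again did not overlap.

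Hey1 encodes a related repressor with a hairy and enhancer-of-split type domain, prominent in blood vessels. It was listed at 0 in all 3 p53-null libraries, in WT replicate 3 and in p53/Brca1-null replicate 1. The remaining values were 0.806 and 10.4 FPKM in WT replicates 1 and 2, and 2.86 and 10.8 in p53/Brca1-null replicates 2 and 3. Each genotype therefore had at least 1 library at 0, and the groups overlapped. No fold is given against p53-null, where all libraries were at 0. Neither difference from p53-null passed, with limma adjusted p of 0.581 against WT and 0.999 against p53/Brca1-null. Hey1 in WT replicate 1 was 7.73% of that in WT replicate 2, also inside the shared range, and subtraction left 0 FPKM, so that replicate 2 was then the only WT library with Hey1 listed above 0.

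Nrarp encodes a small ankyrin-repeat protein that binds the Notch intracellular domain complex and dampens it. It stood at 0.180, 0 and 0 FPKM in WT, at 8.09, 1.28 and 2.05 among p53-null libraries, and at 8.59, 1.44 and 0.0146 in p53/Brca1-null. All p53-null values lay above all WT values, while p53/Brca1-null ranged from the highest value of the series to below that of WT replicate 1. The log2 difference of p53-null from WT was 1.91 ± 0.92 (SE), with a 95% interval from -0.04 to 3.86 (limma adjusted p = 0.430, unadjusted p = 0.0540). In that comparison 14.1% of all tested genes were higher without overlap, so 1 of 7 members with this pattern (Nrarp) was near the background. Nrarp also passed the filter through null libraries only, so its direction against WT was partly set by the filter. For p53/Brca1-null against WT it was 1.44 ± 0.92 (limma adjusted p = 0.537), and 0.57 without p53/Brca1-null replicate 1 (limma adjusted p = 0.835). Quantile normalization lowered the p53-null difference to 0.83 and the p53/Brca1-null difference to 0.91.

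The ligand Dll1, a Delta-like protein, had its high values in the same libraries as Nrarp. It stood at 0, 0.128 and 3.27 FPKM in WT, at 14.3, 3.77 and 2.07 among p53-null libraries, and at 15.5, 4.75 and 0.0538 in p53/Brca1-null. Replicate 1 was the highest of its group for both genes in both null genotypes, and replicate 3 was the lowest p53/Brca1-null library for both. Dll1 was the 1 ligand above 10 FPKM in any library. Its log2 difference from WT was 1.85 ± 1.13 (SE) in p53-null (limma adjusted p = 0.530). For p53/Brca1-null it was 1.46 ± 1.13 (limma adjusted p = 0.618), and the groups overlapped in all 3 comparisons. Between the null genotypes the difference of -0.39 had a 95% interval from -2.77 to 1.997, and it turned sign without p53-null replicate 1 (0.28) or p53/Brca1-null replicate 3 (0.68).

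Of the 21 pairs among the tested members, Dll1 and Nrarp had the most alike pattern. Likeness was measured as the root mean square difference over the 9 libraries of log2(FPKM + 1) centred on each gene's mean, and it was 0.70 for this pair and 0.84 to 2.65 for the others. Many other genes were closer to Nrarp, for which Dll1 ranked 55 of 9502 genes, while few were closer to Dll1, for which Nrarp ranked 4 of 9502. Because these 2 genes moved together, their upstream sequences are shown, 250 bases before the start site, from RefSeq on GRCm38.p6. Nrarp lies on the plus strand, chr2:25180508-25180757, and Dll1 on the minus strand, chr17:15376933-15377182, the more upstream of 2 start sites listed. Capitals mark CACGTG, an E-box of the kind that Hey proteins and other helix-loop-helix factors can bind, and CACNAG, an N-box of the kind bound by Hes proteins, each searched on both strands.
Nrarp: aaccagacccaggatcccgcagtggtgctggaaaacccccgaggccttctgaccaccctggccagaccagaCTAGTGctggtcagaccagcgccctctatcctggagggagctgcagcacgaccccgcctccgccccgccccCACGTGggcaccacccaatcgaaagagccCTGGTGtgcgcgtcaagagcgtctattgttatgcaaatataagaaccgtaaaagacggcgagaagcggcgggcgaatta
Dll1: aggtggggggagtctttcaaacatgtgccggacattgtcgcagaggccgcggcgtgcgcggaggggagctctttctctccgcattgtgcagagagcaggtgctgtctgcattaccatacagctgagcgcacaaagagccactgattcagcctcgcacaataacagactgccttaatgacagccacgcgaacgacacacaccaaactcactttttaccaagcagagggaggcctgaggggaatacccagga

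The Nrarp window held 1 CACGTG and 2 matches to CACNAG, and the Dll1 window held neither. CACGTG was present in 6.02% of all 32851 promoter windows of this length and CACNAG in 36.7%. The core motif of Rbpj, TGGGAA, searched on both strands, was in 0 of the 9 windows of the 8 members with an entry, and in 21.6% of all windows. Its longer form GTGGGAA, which contains that core, was in 5.42% of all windows. Such matches describe letters in a short window and are no record of binding. Entries were used for 8 of the 10 members, all except Hes1 and Hey1.

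Jag1, a ligand of the Jagged family, was above 0 in every library. It stood at 0.3403, 2.86 and 2.11 FPKM in WT, at 8.16, 0.922 and 4.66 among p53-null libraries, and at 0.672, 1.16 and 1.88 in p53/Brca1-null. The 2 highest values were in p53-null replicates 1 and 3, with replicate 2 of that genotype among the low ones. Log2 differences from WT were 0.88 ± 0.91 (SE) for p53-null and -0.21 ± 0.91 for p53/Brca1-null, with -1.09 ± 0.91 between the null genotypes (limma adjusted p of 0.733, 0.950 and 0.999). The sum of the 10 basal and myoepithelial markers was also highest in those libraries, at 1615 and 1334 FPKM in p53-null replicates 1 and 3, against 338 to 684 in the other 7. Their part in the Jag1 values was not tested.

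Jag2, the other Jagged ligand, was listed at 0 in every WT library and in p53/Brca1-null replicate 3. It stood at 1.83, 0.00998 and 0.233 FPKM among p53-null libraries and at 0.00932 and 0.0869 in p53/Brca1-null replicates 1 and 2. After scaling by relative depth the 4 lower values were whole multiples of the smallest one within a tolerance of 2%, at 1 and 24 steps in p53-null replicates 2 and 3 and 1 and 10 in p53/Brca1-null. On the same scale p53-null replicate 1 stood at 196 steps. If 1 step is 1 fragment, Jag2 thus rested on a single fragment in 2 libraries. All p53-null values lay above all WT values, but this gene did not reach the filter and no fold is given against a group at 0. The sum of the 12 endothelial markers was also highest in p53-null replicate 1, at 632.5 FPKM with 0 of 12 listed at 0. Plvap, a protein of endothelial fenestrae, and Emcn gave most of it, at 286 and 126 FPKM, while Cldn5, Cdh5, Tek and Flt1 were each higher in another library. The markers summed to 35.9 and 132 FPKM in the other p53-null libraries, to 138, 0.782 and 159 in WT and to 77.5, 211 and 60.1 in p53/Brca1-null, with 8, 4 and 3 of 12 at 0 in WT. Their part in the Jag2 values was not tested.

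Among the ligands, the make-up of the summed FPKM varied as widely within a genotype as between genotypes. Jag1 made up 100%, 95.7% and 39.2% of ligand FPKM in WT, 33.6%, 19.6% and 66.9% among p53-null libraries, and 4.14%, 19.4% and 97.2% in p53/Brca1-null. Dll1 made up most of the rest, from 0% in WT replicate 1 to 95.8% in p53/Brca1-null replicate 1. Summed ligand FPKM was 0.3403, 2.99 and 5.38 in WT, 24.3, 4.70 and 6.97 among p53-null libraries, and 16.2, 6.005 and 1.93 in p53/Brca1-null. The stacked bars show the change of leading ligand between replicates.

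**Figure D3:**
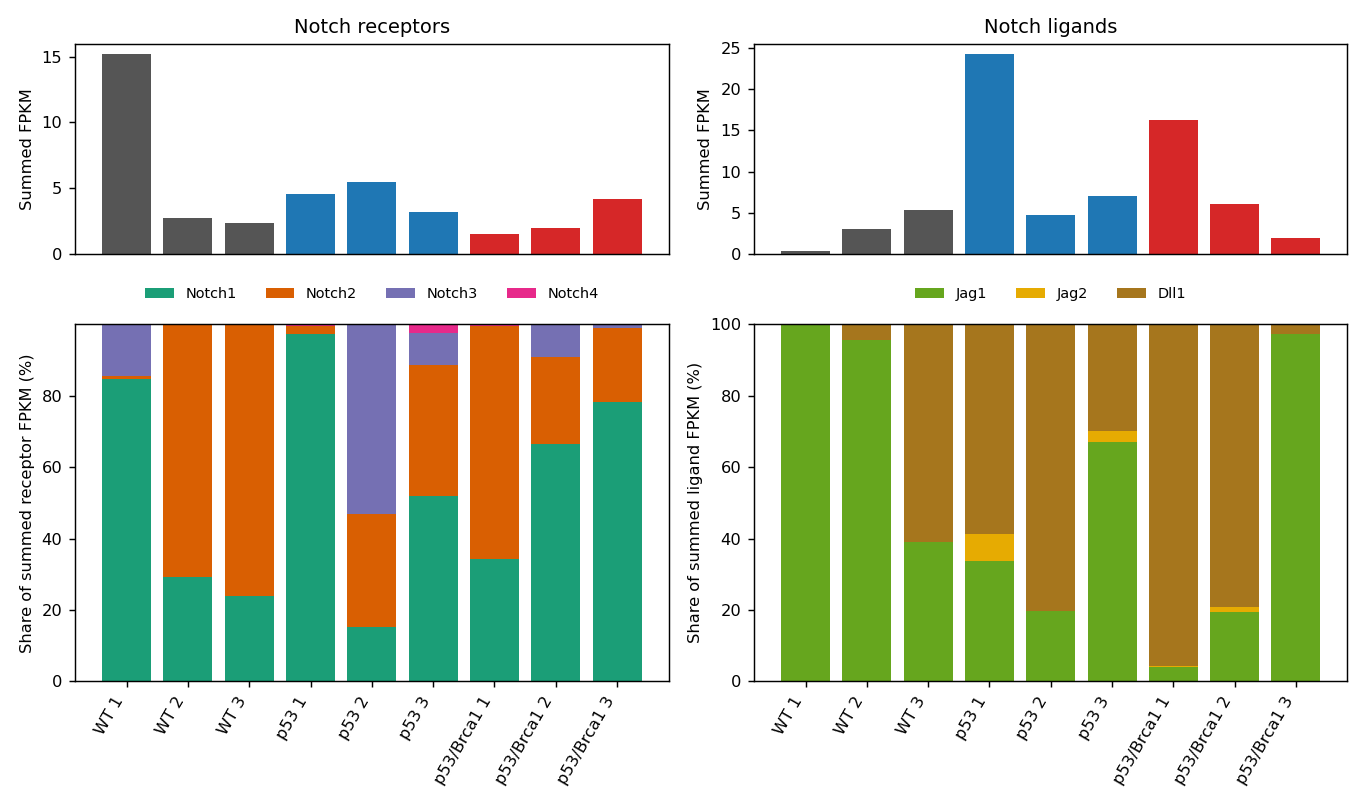
Summed FPKM of the 4 receptors and of the 3 ligands in each library (upper bars, grey WT, blue p53-null, red p53/Brca1-null) and the share of each gene in that sum in percent (lower stacked bars). Replicates of 1 genotype differ in their leading receptor and ligand: Notch1 leads with 84.8% in WT replicate 1 and Notch2 with 70.6% and 75.9% in WT replicates 2 and 3.

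Notch1, the receptor best known from T cell development and T cell leukaemia, was above 0 in all 9 libraries. It stood at 12.9, 0.787 and 0.566 FPKM in WT, at 4.43, 0.839 and 1.67 among p53-null libraries, and at 0.529, 1.33 and 3.27 in p53/Brca1-null. WT held both the highest and the second lowest value, and the groups overlapped in all 3 comparisons. Means were 4.75 ± 7.05 FPKM (SD, n = 3) in WT, 2.31 ± 1.88 among p53-null libraries and 1.71 ± 1.41 in p53/Brca1-null, so the spread in WT was larger than its mean. Compared with WT, p53-null differed by -0.18 ± 1.00 (log2, SE) and p53/Brca1-null by -0.45 ± 1.00, with limma adjusted p of 0.962 and 0.889. Both turned positive without WT replicate 1, to 0.84 and 0.57, and the first also without p53-null replicate 2, to 0.17.

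Notch2, a receptor also known from B cells and bile duct development, was low throughout and above 0 in all libraries. It stood at 0.101, 1.90 and 1.80 FPKM in WT, at 0.0979, 1.73 and 1.18 among p53-null libraries, and at 1.01, 0.487 and 0.862 in p53/Brca1-null. The 2 lowest values were in WT replicate 1 and p53-null replicate 1, which were the 2 libraries with the highest Notch1. Means of 1.27 ± 1.01 FPKM (SD, n = 3), 1.00 ± 0.831 and 0.786 ± 0.270 lay within 1 SD of the WT mean. Log2 differences were -0.15 ± 0.71 (SE), -0.23 ± 0.71 and -0.08 ± 0.71 in the 3 comparisons, with the smallest SE of the 7 tested members and 95% intervals that lay between -1.74 and 1.43.

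As shares of summed receptor FPKM, the leading receptor changed between replicates of each genotype. Notch1 made up 84.8%, 29.2% and 23.9% in WT, 97.4%, 15.3% and 52.0% among p53-null libraries, and 34.3%, 66.5% and 78.3% in p53/Brca1-null. Notch2 made up 0.665%, 70.6% and 75.9% in WT, 2.15%, 31.5% and 36.7% among p53-null libraries, and 65.4%, 24.3% and 20.6% in p53/Brca1-null. A share is not affected by a rescaling of a whole library, and no genotype kept 1 leading receptor in all 3 libraries. Summed receptor FPKM was 15.2, 2.70 and 2.37 in WT, 4.55, 5.49 and 3.20 among p53-null libraries, and 1.54, 2.01 and 4.18 in p53/Brca1-null.

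Notch3, known as the receptor of vascular smooth muscle and also present in luminal cells, was listed at 0 in 4 of the 9 libraries. It stood at 2.21, 0 and 0 FPKM in WT, at 0, 2.92 and 0.284 among p53-null libraries, and at 0, 0.186 and 0.0403 in p53/Brca1-null. Only WT replicate 1 and p53-null replicate 2 exceeded 1 FPKM, and in the second of these Notch3 was the leading receptor with 53.2% of receptor FPKM. The 7 pericyte and mural markers summed to 0.345 and 7.47 FPKM in those 2 libraries, against 0.0216 to 21.2 in the rest. In each of the 2 libraries 4 of the 7 were listed at 0, and in p53-null replicate 2 Rgs5 stood at 5.41 FPKM and Des at 2.001, with Pdgfrb listed at 0. Their part in the Notch3 values was not tested.

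Notch4, a receptor known from endothelium, was close to undetected. It stood at 0, 0.00536 and 0.00578 FPKM in WT, at 0.0225, 0 and 0.0758 among p53-null libraries, and at 0.00561, 0 and 0.00542 in p53/Brca1-null. On the scale of whole steps within 2%, these were 0, 1 and 1 steps in WT, 4, 0 and 13 among p53-null libraries, and 1, 0 and 1 in p53/Brca1-null. The groups overlapped, and at such steps a difference between genotypes was not detectable at this depth.

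Counted over the family, 3 to 6 members per library stood at 1 FPKM or more. The numbers were 3, 4 and 4 of 10 in WT, 6, 5 and 6 among p53-null libraries, and 4, 6 and 4 in p53/Brca1-null. Members listed at 0 numbered 3, 3 and 4 in WT, 2, 2 and 1 among p53-null libraries, and 2, 1 and 1 in p53/Brca1-null. All genes at 1 FPKM or more numbered 4839, 7320 and 6105 in WT, 6286, 9146 and 9767 among p53-null libraries, and 7332, 8213 and 7473 in p53/Brca1-null, and the part of this wider detection in the member counts was not tested.

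The rest of the pathway was described with a list of 57 further genes, of which 39 were tested. None passed in any comparison (limma adjusted p of 0.239 or more in p53-null against WT, 0.371 or more in p53/Brca1-null against WT and 0.917 or more between the null genotypes). At an unadjusted p under 0.05 there was 1 gene in the first comparison, higher in p53-null, where 10.8% of all genes were so. There were 2 in the second, 1 higher and 1 lower, beside 10.1% and 2.09% of all genes, and 2 in the third, both lower, beside 2.88%. The medians of the 39 were 0.64, 0.30 and -0.27 on the log2 scale, close to the 0.58, 0.41 and -0.16 of all genes. In p53-null against WT 30 lay above 0 and 9 below, and between the null genotypes 13 lay above and 26 below. Relative to the median of all genes, 21 and 18 of the 39 lay above it in these 2 comparisons. The first of the splits around 0 was 17 to 22 after quantile normalization and 19 to 20 when detected gene number was a covariate. The second was 15 to 24 and 17 to 22 in the same settings.

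**Figure D4:**
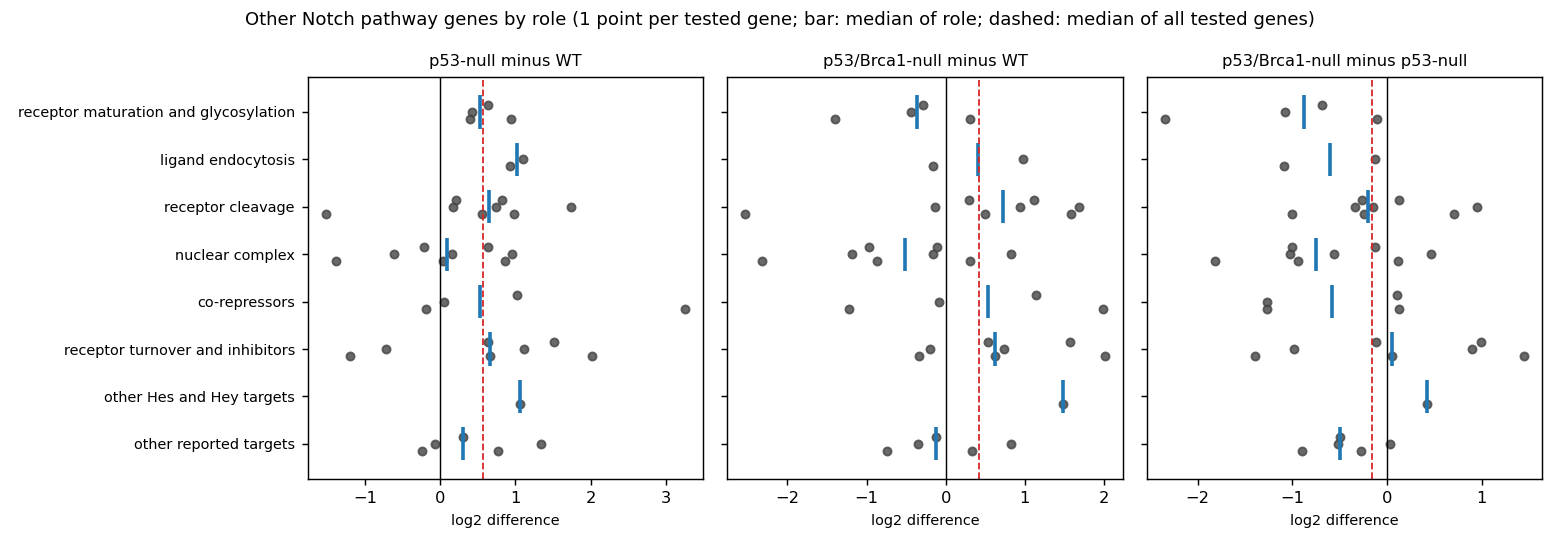
Log2 difference (horizontal axis) of each of the 39 tested pathway genes (1 point per gene, grouped by role on the vertical axis) in the 3 comparisons; the bar is the median of a role, the solid line marks 0 and the dashed line the median of all tested genes. Between the null genotypes the receptor maturation genes (median -0.88 over 4 genes) and the nuclear complex (-0.75 over 8) lie lowest, with no gene past the adjusted threshold.

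Among ligands outside the members, Dll4, known from sprouting vessels, was above 0 in 3 libraries, p53-null replicates 1 and 3 and p53/Brca1-null replicate 2, at 0.277, 0.241 and 5.12 FPKM. Lfng, a glycosyltransferase that alters which ligands a receptor answers to, stood at 0.228, 3.58 and 1.1402 FPKM in WT, at 0, 6.19 and 2.82 among p53-null libraries, and at 1.1395, 0.161 and 1.64 in p53/Brca1-null. Furin, the protease that cuts Notch receptors during their maturation, stood at 14.4, 4.85 and 11.8 FPKM in p53-null against 0.661, 2.05 and 0.727 in p53/Brca1-null. Its p53-null values did not overlap the lower p53/Brca1-null values, with a log2 difference of -2.35 ± 1.00 (SE, limma adjusted p = 0.917, unadjusted p = 0.0318). WT spanned both, from 0.701 to 9.46 FPKM.

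The genes of receptor cleavage varied widely within genotypes. Adam10 stood at 2.47, 18.03 and 2.03 FPKM in WT, at 0.230, 44.4 and 10.49 among p53-null libraries, and at 2.44, 7.90 and 11.1 in p53/Brca1-null. Psen2, a catalytic subunit of gamma-secretase, was higher without overlap in p53-null than in WT (log2 difference 1.74, limma adjusted p = 0.561). Ncstn and Aph1a, 2 further subunits, had log2 differences of -2.53 and 1.68 in p53/Brca1-null against WT (limma adjusted p of 0.488 and 0.494). Ncstn leaned on WT replicate 1, at 132, 18.4 and 8.79 FPKM in WT against 0, 4.29 and 23.6, and these groups overlapped. With a library left out its difference ran from -3.67 to -1.36. Mib1, the ubiquitin ligase that lets ligands be endocytosed, had 0 in each WT library and 1.22, 3.40 and 0 FPKM in p53-null.

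In the nucleus, Rbpj lay between 2.01 and 4.87 FPKM in all libraries, at 4.84, 2.53 and 3.18 FPKM in WT, 4.87, 2.01 and 2.09 among p53-null libraries, and 4.10, 3.22 and 2.21 in p53/Brca1-null. Its log2 differences were -0.22, -0.11 and 0.11 (limma adjusted p of 0.944, 0.980 and 0.999). Of the Mastermind coactivators, Maml1 and Maml2 were lower without overlap in p53/Brca1-null than in p53-null, though neither passed (limma adjusted p = 0.999 for each), and Maml3, which did not reach the filter, overlapped. Maml1 stood at 0, 0.0626 and 0.156 FPKM against 1.07, 1.73 and 0.823, and Maml2 at 0, 0.354 and 0.0899 against 2.72, 0.515 and 0.845. Both passed the filter through libraries of the other genotypes only, so their direction in p53/Brca1-null was partly set by the filter. Maml2 differed from WT by -2.32 ± 1.01 in p53/Brca1-null (limma adjusted p = 0.371, unadjusted p = 0.0351), but WT replicate 1 alone was at 24.4 FPKM and WT replicate 2 at 0.143. Snw1, a splicing and transcription cofactor that binds the Notch complex, stood at 20.5, 52.5 and 48.0 FPKM among p53-null libraries and at 5.02, 12.04 and 15.6 in p53/Brca1-null. That difference was -1.81 ± 0.82 (SE, limma adjusted p = 0.988, unadjusted p = 0.0409). Of the 39 tested genes, 7 were lower without overlap between the null genotypes (Furin, Psenen, Maml1, Maml2, Snw1, Hdac1 and Myc) and 0 were higher, beside 8.02% and 4.87% of all genes. In p53-null against WT 4 were higher and 0 lower, beside 14.1% and 2.16%, and in p53/Brca1-null against WT 2 were higher and 1 lower, beside 12.7% and 3.83%.

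Among repressors and inhibitors, Hdac1, a histone deacetylase, had the smallest p against WT. It stood at 2.04, 28.1 and 0.440 FPKM in WT, at 43.2, 49.0 and 49.7 among p53-null libraries, and at 39.9, 20.1 and 8.18 in p53/Brca1-null. The p53-null values were tight and above all others, with a log2 difference from WT of 3.26 ± 1.08 (SE, limma adjusted p = 0.239, unadjusted p = 0.00772) and one of 1.99 for p53/Brca1-null (limma adjusted p = 0.469). Without WT replicate 1 the p53-null difference was 2.90 (limma adjusted p = 0.437), and with any library left out it ran from 2.36 to 4.53. Numb, which promotes removal of Notch receptors, stood at 0.344, 5.69 and 3.38 FPKM in WT, at 12.1, 12.03 and 14.5 among p53-null libraries, and at 1.06, 12.8 and 4.10 in p53/Brca1-null. Between p53-null and WT the log2 difference of Numb was 2.02 ± 1.03 (SE, limma adjusted p = 0.454). Without WT replicate 1 the difference of Numb was 1.35 (limma adjusted p = 0.724), and with any library left out it ran from 1.35 to 2.51. Numbl, the paralogue of Numb, had 0 in each WT library and 10.4, 1.048 and 0 FPKM in p53-null. Itch, a ubiquitin ligase that acts on Notch, had a log2 difference of 2.01 ± 0.92 in p53/Brca1-null against WT (limma adjusted p = 0.393, unadjusted p = 0.0433), and its 3 WT values were 0.0190, 0.461 and 0 FPKM. Itch passed the filter through null libraries only, as Numbl did, so the direction against WT was partly set by the filter. Dtx2, of the Deltex family, differed by 1.45 between the null genotypes (limma adjusted p = 0.999).

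Of 5 other reported targets, 4 lay below 0 between the null genotypes as Hes1 did (median log2 difference -0.50, against -0.16 for all genes), and none passed. Hes6, the 1 tested gene of the other Hes and Hey targets, lay above 0 there, at 0.42 (limma adjusted p = 0.999). The member Hey1 did too, at 1.84, so the targets did not share 1 direction. Heyl, the third Hey family gene, was at 6.95 FPKM in p53/Brca1-null replicate 1 and listed at 0 in the other 8 libraries. Hes5, a target in neural progenitors, was listed at 0 in all 9. Myc, a target in T cells, lay between 105 and 126 FPKM among p53-null libraries and at 32.4, 78.0 and 86.3 in p53/Brca1-null, lower without overlap as Hes1 was, with a log2 difference of -0.90 (limma adjusted p = 0.999).

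The genes with the most alike pattern to each tested member over the 9 libraries were found by the same root mean square difference of centred log2 values. For Hes1 they were Cldn10 (0.32) and Fnbp4 (0.40), against a spread of Hes1 itself of 1.09. Cldn10, a claudin of tight junctions, stood at 6.28, 71.3 and 71.0 FPKM in WT, at 39.3, 39.5 and 33.0 among p53-null libraries, and at 19.0, 7.01 and 12.4 in p53/Brca1-null, so it too was lower in p53/Brca1-null than in p53-null without overlap. For Nrarp they were Galnt7 (0.23) and Ptrh2 (0.40), and Galnt7, a glycosyltransferase, was listed at 0 in all WT libraries. The nearest genes were Cd3eap and Taf8 for Dll1 (0.63 and 0.68), Tasp1 and Tnfsf14 for Hey1 (0.19 and 0.51), and Cdk14 and Rock2 for Jag1 (0.34 and 0.40). For Notch1 they were Setdb2 and Hbb-bh1 (both 0.33), and for Notch2 Actg1 and Elmsan1 (0.14 and 0.19). These genes were picked as the closest of 9502, and their likeness is a description of these 9 libraries. Hes1 and Hey1 lay inside the shared ratio of WT replicates 1 and 2, at 8.42% and 7.73%. Their nearest genes were also far lower in replicate 1 than in replicate 2. The values were 6.28 and 71.3 FPKM for Cldn10, 0.845 and 9.54 for Fnbp4, 1.35 and 14.9 for Tasp1, and 0.826 and 10.3 for Tnfsf14. Likeness was not measured without WT replicate 1, and the part of that share in it was not tested.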

How the data were processed

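RNA of sorted cells was made into libraries with the SMARTer v4 low-input kit, per the labels' protocols. The submitters' processing notes name the genome build mm9, while for the aligner, quantifier and annotation no name is given in the sources used here. The deposited table has 1 column of values per library, and its header names no unit. The values were taken as FPKM calculated by the authors, from their range and their sums. Of 24043 rows, 92 spike-in rows were left out. A shallow or uneven library raises the scatter of low values and of genes listed at 0.

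Genotypes were compared with limma 3.58.1 in R 4.3.3 on log2(FPKM + 1), with 1 coefficient per genotype over 9 libraries, 6 residual degrees of freedom, and trended, robust moderation. Testing took in the 9503 of 23951 genes that reached 1 FPKM in 3 or more libraries, p-values were adjusted by Benjamini-Hochberg over all of them, and genes were called at 0.05. A gene under 1 FPKM in every library of 1 genotype was tested only through the other genotypes. Its direction against that genotype was thus partly set by the filter. Such genes were Nrarp, Itch, Mib1 and Numbl for WT, Hey1 for p53-null, and Maml1 and Maml2 for p53/Brca1-null. A difference on the log2(FPKM + 1) scale understates the change of low genes. The fit was also run on simulated data with changes larger than any member difference, which does not show how it performs for the members. All 10 members are named. From the wider pathway list Dll4, Lfng, Adam10, Rbpj, Maml1, Numb and Heyl are always named (1 further gene of this rule is not reported here), with the 5 smallest p-values in each comparison and the 2 genes nearest to each tested member. Hes5, Hes6, Maml3, Psenen and single marker genes were named after their values were seen. The members and lists were chosen with earlier results of these data known. Promoter windows were searched with Python 3.11.15. Alternatives covered the filter, pseudocount, normalization, variance model, library weights, covariates and each library left out.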

Additional observations from a re-analysis of the deposited data

How the results depend on the processing

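No member and no gene of the wider pathway list was called under any setting (limma, Benjamini-Hochberg), and 9 of 21 member differences kept their direction in all settings that gave them. The count of all genes called moved. For p53-null against WT (1 gene) it was 0 with only the 6 libraries compared and with detected genes as a covariate, 42 without trend and robust moderation, 17 with a pseudocount of 0.1, 2 with library weights, and 0 to 8 with a library left out (2, 5 and 8 without WT replicates 1, 2 and 3, and 0 without p53-null replicate 1 or 3). For p53/Brca1-null against WT (24 genes) it was 7 with 6 libraries, 78 without trend, 45 with quantile normalization, 56 with a pseudocount of 0.1, 4 with the covariate, 6 with the WT replicate 2 share subtracted, a setting chosen after seeing the data, and 3 to 73 with a library left out (73 when WT replicate 3 was out, 8 and 12 for p53-null replicates 2 and 3, and 6, 3 and 7 for p53/Brca1-null replicates 1, 2 and 3). Between the null genotypes (0 genes) it was 1 with 6 libraries and 19 with library weights.

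With the replicate number as a block the counts were 1, 14 and 0. No pairing by number was seen: over 9 same-numbered pairs the correlation of deviations ran from -0.083 to 0.0559, and 2 libraries correlated best with their own number. With 3 libraries per genotype, a weak effect shared by a number may not show. The block changed no member call.

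Member differences that changed sign were, for p53-null against WT, Notch1 with the covariate (1.20), Jag1 with quantile normalization (-0.20), and Hes1 with quantile normalization (-0.10) and the covariate (-0.50). For p53/Brca1-null against WT they were Notch1 with the covariate (0.50) and Hey1 with quantile normalization (-0.37) and the covariate (-0.17). Between the null genotypes quantile normalization gave Notch1 0.066, Notch2 0.23, Dll1 0.30 and Nrarp 0.082, a pseudocount of 0.1 gave Notch2 0.15, the covariate gave Notch2 0.19, and library weights gave Dll1 0.40. With a library left out, p53-null against WT ran from -0.74 to 0.84 for Notch1, -0.61 to 0.23 for Notch2 and -0.64 to 1.07 for Hes1. For p53/Brca1-null against WT it ran from -1.01 to 0.57 for Notch1, -0.69 to 0.013 for Notch2, -0.67 to 0.10 for Jag1 and -0.34 to 1.30 for Hey1. Between the null genotypes it ran from -0.66 to 0.16 for Notch1, -0.46 to 0.20 for Notch2, -1.30 to 0.68 for Dll1 and -1.34 to 0.28 for Nrarp. Without libraries at 0 the WT level was 2.21 FPKM for Notch3 and 0.180 for Nrarp. The filter of 5 FPKM left 1 member, Hes1. The cause of these changes was not tested. Unknown read depth limits what can be said of members under 1 FPKM.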
